A study of Homo sapiens with 9 samples.

Results

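Messenger RNA of SKbr3 cells given siRNA 3 against TRMT12 was compared with that of SKbr3 cells given control siRNA on 3 two-colour oligonucleotide arrays. They were chosen by their label, siRNA 3, and are 3 of the 9 arrays of the series. SKbr3 is a HER2-amplified human breast cancer line. In each hybridisation of the series, cells given 1 of 3 siRNAs against TRMT12 were set against cells given control siRNA, 3 arrays to an siRNA. On arrays 1 and 2 of siRNA 3 the knockdown RNA carried Cy5, and on array 3 the dyes were exchanged. In the sample labels the control bears the number of its TRMT12 siRNA, while the series text speaks of 1 control, so whether control RNA was shared between siRNAs is not settled. Separate cultures are not mentioned for the 3 hybridisations, and p-values therefore reflect hybridisation-to-hybridisation spread, which may be technical. No dose or time after transfection is given in the sources used here.

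TRMT12, now called TYW2, transfers an aminocarboxypropyl group in the synthesis of wybutosine, a bulky tricyclic base next to the anticodon of phenylalanine transfer RNA. TYW1, TRMT5, TYW3, TYW5 and LCMT2 act at other steps of the same route. The modification is known for holding the reading frame at phenylalanine codons. The siRNA acts on the messenger RNA, and each siRNA can also act on transcripts other than its target.

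Every value below is a log2 ratio, knockdown over control, of spot signal above local background, normalised by loess within its array, unless another quantity is named. Estimates are dye-adjusted means from a limma fit over the 9 arrays, given with their standard error. A gene was called when its Benjamini-Hochberg adjusted p over 28259 probes was under 0.05, and "higher" and "lower" are used of called genes. Each gene was read from its brightest tested probe. Median spot signal on the 3 arrays was 280.2 to 418.4 in the knockdown channel and 171.4 to 514.8 in the control channel, and 2.57% to 14.5% of probes gave no ratio. ERBB2, GRB7, KRT8, KRT18, KRT19 and EPCAM, which mark this luminal line, were detected on all 9 arrays. Of 25 stromal and blood cell markers on the array, 19 were detected on all 3 arrays of siRNA 3, with a summed signal of 9403 to 14664 in the knockdown channel and 5790 to 18714 in the control channel. None of the 18 that could be tested was called.

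The target of the siRNA was strongly reduced. TRMT12 (TYW2) stood at -2.61, -2.51 and -2.35 on arrays 1 to 3, an estimate of -2.46 ± 0.062 (SE, n = 3 arrays, limma adjusted p = 7.77e-05). That left 18.1% of the control level. Spot signal was 344.3 against 1291 on array 1, 485.5 against 1793 on array 2 and 273.2 against 2695 on array 3. The estimates for siRNA 1 and 2 were -2.62 and -2.51. Minus their mean, siRNA 3 stood at 0.10 with an adjusted p of 0.448, so a difference in knockdown was not detectable with these arrays. Among 6 measured genes of wybutosine synthesis, 2 were higher and 2 lower. TYW3, the methyltransferase acting after TRMT12, was at 0.42, 0.56 and 0.56 and rose by 0.53 ± 0.066 (adjusted p = 0.00299). TYW1, which builds the tricycle, had an estimate of 0.15 ± 0.041 (adjusted p = 0.0485), and with median centring in place of loess it was 0.00 with the opposite sign. TRMT5, the guanosine methyltransferase of the first step, had an estimate of -0.24 ± 0.066 (adjusted p = 0.0463). Without any 1 array of siRNA 3, and with median centring, neither TYW1 nor TRMT5 was called, which left 1 higher and 1 lower, and TYW1 was not called with the authors' ratios.

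Across the array, 5656 of 28259 probes were called (20%), 2799 higher (9.9%) and 2857 lower (10.1%). Per gene, 1752 of 14148 were higher (12.4%) and 1624 lower (11.5%). Most changes were small: 234 genes (1.65%) were higher by at least 1.5-fold and 66 (0.466%) lower (347 probes, 1.23%, and 153 probes, 0.541%), and 19 and 2 passed 2-fold. The balance of the directions moved with the scaling, from 2799 higher and 2857 lower to 806 and 2525 with median centring and to 1475 and 3084 with the authors' calibrated ratios. Without array 1, 2 or 3 of siRNA 3 the called probes numbered 2758, 2947 and 2248. With the siRNA 3 arrays fitted alone, which leaves 1 residual degree of freedom, limma called 0 of 27640 probes at an adjusted p under 0.05 and 8147 at an unadjusted p under 0.05. Of 4187 genes with several tested probes, 43.8% had probes of opposite sign, whether called or not, and 63 genes had probes called both ways.

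Of the lowest called genes after TRMT12, some moved alike in both dye orientations and others did not. VCP, the p97 ATPase that extracts ubiquitinated proteins from membranes and complexes, stood at -1.03, -1.02 and -1.09, estimate -1.07 ± 0.045 (adjusted p = 0.000314). Among called genes with the same sign on all 3 arrays, only TRMT12 had a lower estimate. PPIF, the mitochondrial cyclophilin that regulates the permeability transition, stood at -0.72, -0.88 and -1.16, estimate -0.98 ± 0.056 (adjusted p = 0.00047). ID1, an inhibitor of basic helix-loop-helix factors, stood at -0.86, -0.92 and -0.90, estimate -0.90 ± 0.04 (adjusted p = 0.000314). For VCP and ID1 the 3 arrays lay close together in both dye orientations, while PPIF was lowest on the swapped array, with a dye term of 0.16 and an adjusted p of 0.015. MCUB, a subunit that restrains the mitochondrial calcium uniporter, was at -0.81, -1.02 and -0.93, estimate -0.90 ± 0.072 (adjusted p = 0.00103), and its other probe gave -0.47.

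ASRGL1, an asparaginase, had an estimate of -0.75 ± 0.054 (adjusted p = 0.000892), and its other probe gave -0.89. LITAF, a protein of late endosomes, had an estimate of -0.75 ± 0.057 (adjusted p = 0.000965), while its other probe gave -0.11 and was not called. EHBP1L1 had an estimate of -0.72 ± 0.076 (adjusted p = 0.00183), and its 2 other probes gave -0.70 and -0.05. PTDSS1, a phosphatidylserine synthase, stood at -0.90, -0.98 and -0.52, estimate -0.72 ± 0.05 (adjusted p = 0.000853), with a dye term of -0.23 and an adjusted p of 0.00376. Its other probe, a dim one, gave 0.03 and was not called.

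A further set of low genes was far lower in Cy5 than on the swapped array. UGT1A4 stood at -1.51, -1.49 and -0.37, and its dye term was -0.49 with an adjusted p of 0.00178. SPRR1B, a cornified envelope protein of squamous cells, stood at -1.41, -1.44 and -0.20, with a dye term of -0.39 and an adjusted p of 0.0125. LRP5L, DNAJC22, CHRM3, UGT1A9, RCAN3 and SLC38A12 had the same shape, with -0.95 to -1.59 on arrays 1 and 2 and -0.25 to -0.47 on array 3. RIBC2 stood at -1.06, -1.56 and -0.55. All of these but UGT1A4 were dim, with a mean log2 intensity below 8.64, the median of tested probes. The calls of LRP5L, CHRM3 and UGT1A9 were lost without array 1 or without array 2 of siRNA 3, and those of DNAJC22, CHRM3 and UGT1A9 without array 3. Without the dye term UGT1A4, DNAJC22, CHRM3, UGT1A9, RCAN3 and SLC38A12 were not called, and with median centring or the authors' ratios LRP5L, DNAJC22, SPRR1B, CHRM3 and UGT1A9 were not. MADD, at -0.72, -0.63 and -0.85 and dim, lost its call under those 3 settings and without any 1 array of siRNA 1 or siRNA 3. The call of MADD was also lost without array 3 of siRNA 2, and that of CHRM3 without array 1 of siRNA 1. UGT1A members share most of their sequence, so these probes cannot be assigned to 1 gene with certainty.

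PPIG had the highest estimate among called genes with the same sign on all 3 arrays. This gene, a nuclear cyclophilin that binds splicing factors, stood at 1.26, 1.22 and 1.29, estimate 1.28 ± 0.066 (adjusted p = 0.00047), a 2.42-fold rise. CLDN1, a tight junction claudin, stood at 1.04, 1.20 and 1.25, estimate 1.18 ± 0.05 (adjusted p = 0.000314). ESCO1, which acetylates cohesin, stood at 1.33, 1.16 and 1.06, estimate 1.16 ± 0.054 (adjusted p = 0.000357). For PPIG, CLDN1 and ESCO1 all 3 arrays lay above 1, as they did for WIPF1.

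STK38L, an NDR kinase, stood at 0.89, 1.11 and 1.31, estimate 1.20 ± 0.11 (adjusted p = 0.00182). WIPF1, which binds the actin regulator WASP, stood at 1.21, 1.05 and 1.13, estimate 1.16 ± 0.074 (adjusted p = 0.000661), while its 2 other, dimmer probes gave 0.30 and 0.25 and were not called. CEP290, of the ciliary transition zone, had an estimate of 1.11 ± 0.045 (adjusted p = 0.000314), and its other probes gave 1.10 and 0.30. NPR3, the natriuretic peptide clearance receptor, had an estimate of 1.07 ± 0.06 (adjusted p = 0.00047), and its other probe gave 0.04. ZNF92, a zinc finger protein, had an estimate of 1.11 ± 0.062 (adjusted p = 0.00047), and its other probe gave -0.03. For NPR3 and ZNF92 the probes of a gene therefore disagree.

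ATRX, a chromatin remodeller, stood at 1.14, 0.92 and 1.08, estimate 1.05 ± 0.058 (adjusted p = 0.00047). RB1CC1, which starts autophagosome formation, stood at 0.75, 0.91 and 1.29, estimate 1.06 ± 0.055 (adjusted p = 0.00047). MRPL50, of the mitochondrial ribosome, had an estimate of 1.08, MED18, a Mediator subunit, 1.09, and JMJD1C, a jumonji protein, 1.02. CSGALNACT2, an enzyme of chondroitin sulfate synthesis, had an estimate of 1.01, and CCDC186 1.12. CCDC186 was the least even of these, at 0.60, 1.40 and 1.22, and lost its call without array 3.

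**Figure D1:**
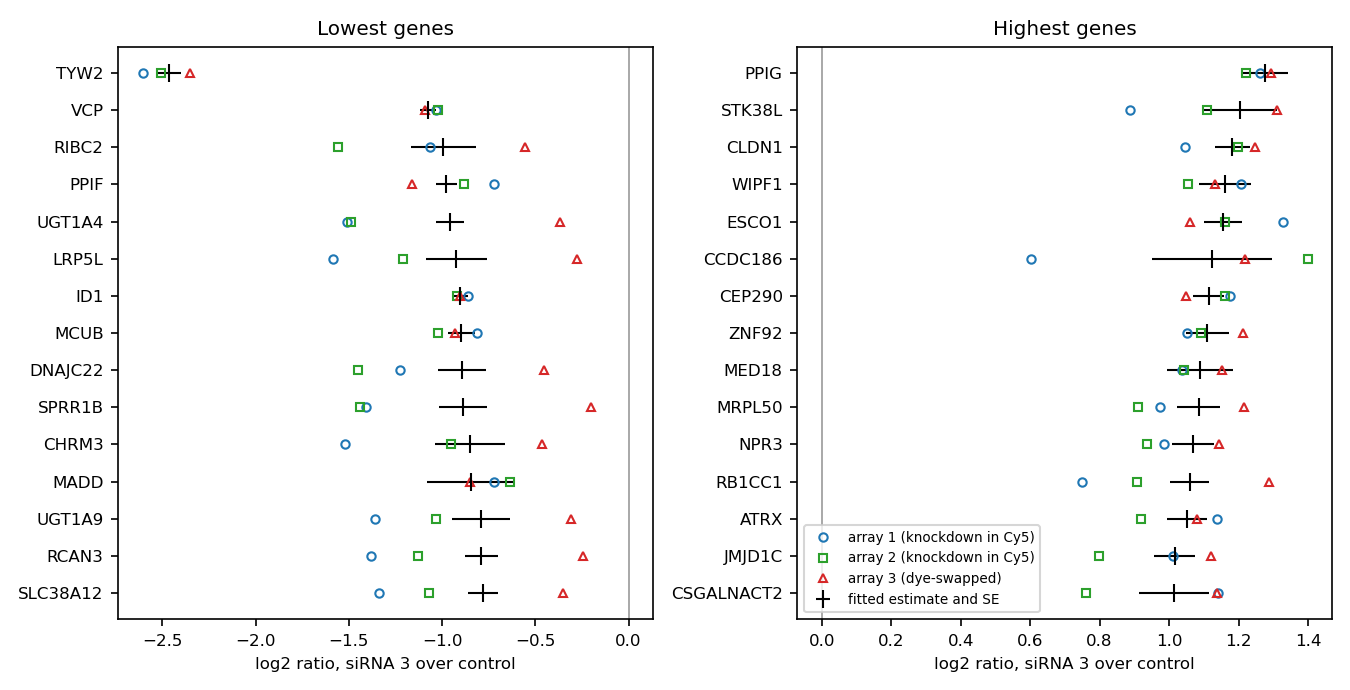
Log2 ratio of siRNA 3 over control on each array (points) with the fitted estimate and its standard error (bars). Shown are the 15 lowest and 15 highest called genes with the same sign on all 3 arrays. The 3 arrays of VCP, ID1 and PPIG lie close together, while UGT1A4, SPRR1B and several dim genes are low on the Cy5 arrays and less low on the swapped array.

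The rest of the genes are described by lists of pathways and markers, each with how many measured members were called. Over all genes the shares were 12.4% higher and 11.5% lower and the median estimate was 0.01, and 0.01 and -0.03 with the authors' ratios and with median centring. The medians of the lists moved with the scaling too, so both are given beside those named. Counts of members called higher and lower are also given without array 1, 2 or 3 of siRNA 3 and under the other scalings, which lower the number of higher calls in most lists and turn the balance in several.

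Genes of mitosis went both ways. Of 51 measured, 15 were higher and 9 lower, and the median estimate was 0.07, -0.03 with the authors' ratios and -0.07 with median centring. CENPE, the kinetochore motor, stood at 0.87, 0.76 and 0.72, estimate 0.80 ± 0.097 (adjusted p = 0.00262). CENPF, a kinetochore and nuclear matrix protein, stood at 0.58, 0.78 and 0.67, estimate 0.69 ± 0.061 (adjusted p = 0.00127). The other higher members were KIF18A, SMC2, HMMR, BUB1B, ANLN, DLGAP5, NUF2, KIF14, TPX2, KIF23, NDC80, ECT2 and SPC25, from 0.53 down to 0.23.

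The lower members were led by BIRC5, the survivin subunit of the chromosomal passenger complex, at -0.55, -0.61 and -0.55, estimate -0.58 ± 0.054 (adjusted p = 0.00134), and TOP2A, topoisomerase II alpha, at -0.67, -0.58 and -0.40, estimate -0.53 ± 0.046 (adjusted p = 0.0012). CDC20, UBE2C, CDC25B, KIF2C, ESPL1, AURKB and ZWINT followed, from -0.47 to -0.20. With array 1, 2 or 3 left out, 10 and 6, 13 and 6, and 6 and 6 members were higher and lower. With the authors' ratios 8 were higher and 9 lower, and with median centring 5 and 8.

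Promoters of these genes are shown because mitotic genes are known to carry a cell cycle homology region, whose core letters are TTTGAA. RefSeq promoters (build GRCh38.p14, 250 bases before to 50 after the start) were held for 45 of the 51 genes. TTTGAA, on either strand and therefore also as TTCAAA, stood in 13 of 14 promoters of higher members, 4 of 7 of lower members and 15 of 24 of members not called. It stood in 15.4% of 27305 promoters. It was 1 of 8 letter strings searched in 4 lists after the values were seen, the others being CCAAT, CACCCCAC, TGACGTCA, TCACNCCAC, GGCGGGAA, TTTCCCGC and TTTGGCGC. TCACNCCAC, the core of a sterol regulatory element, stood in 0 of 6 promoters of higher cholesterol genes and 1.15% of all. A match is a description of the letters only. The promoters of the 3 highest and 3 lowest called members in that table follow, with each match in capitals.
CENPE, chr4:103198294-103198593, minus strand: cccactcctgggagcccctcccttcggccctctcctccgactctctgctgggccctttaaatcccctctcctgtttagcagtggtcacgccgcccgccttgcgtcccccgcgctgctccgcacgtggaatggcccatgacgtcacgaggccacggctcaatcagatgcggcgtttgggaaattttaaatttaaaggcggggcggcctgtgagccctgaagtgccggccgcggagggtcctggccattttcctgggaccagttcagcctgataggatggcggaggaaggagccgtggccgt
CENPF, chr1:214602945-214603244, plus strand: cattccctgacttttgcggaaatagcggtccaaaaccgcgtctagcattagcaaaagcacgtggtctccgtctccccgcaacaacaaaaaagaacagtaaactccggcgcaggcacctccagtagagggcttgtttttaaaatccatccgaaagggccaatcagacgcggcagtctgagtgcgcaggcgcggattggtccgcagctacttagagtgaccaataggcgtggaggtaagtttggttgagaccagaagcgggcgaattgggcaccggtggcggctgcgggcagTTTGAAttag
KIF18A, chr11:28108107-28108406, minus strand: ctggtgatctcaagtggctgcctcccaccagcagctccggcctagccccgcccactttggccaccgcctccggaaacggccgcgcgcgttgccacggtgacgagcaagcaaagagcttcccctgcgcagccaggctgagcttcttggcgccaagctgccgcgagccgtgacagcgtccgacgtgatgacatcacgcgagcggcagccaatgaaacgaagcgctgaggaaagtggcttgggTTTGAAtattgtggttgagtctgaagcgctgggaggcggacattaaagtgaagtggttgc
TOP2A, chr17:40417847-40418146, minus strand: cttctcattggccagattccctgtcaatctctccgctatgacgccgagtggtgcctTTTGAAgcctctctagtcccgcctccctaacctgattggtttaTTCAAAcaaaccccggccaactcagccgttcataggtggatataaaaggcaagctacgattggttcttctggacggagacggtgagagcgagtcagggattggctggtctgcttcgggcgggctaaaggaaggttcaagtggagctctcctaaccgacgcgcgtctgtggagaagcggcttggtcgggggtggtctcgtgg
CDC20, chr1:43358731-43359030, plus strand: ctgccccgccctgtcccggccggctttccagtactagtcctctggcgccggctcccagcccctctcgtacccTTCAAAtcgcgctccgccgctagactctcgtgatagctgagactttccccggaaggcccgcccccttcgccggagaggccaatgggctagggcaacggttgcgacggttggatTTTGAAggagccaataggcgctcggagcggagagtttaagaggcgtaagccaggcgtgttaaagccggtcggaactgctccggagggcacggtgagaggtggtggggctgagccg
CDC25B, chr20:3786701-3787000, plus strand: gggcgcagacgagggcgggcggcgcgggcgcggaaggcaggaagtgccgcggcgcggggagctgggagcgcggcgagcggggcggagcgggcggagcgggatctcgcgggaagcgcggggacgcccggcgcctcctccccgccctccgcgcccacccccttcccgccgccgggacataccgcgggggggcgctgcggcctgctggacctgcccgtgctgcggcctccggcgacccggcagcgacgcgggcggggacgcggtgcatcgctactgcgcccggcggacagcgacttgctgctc
CENPE, the highest, has no match in its window, while TOP2A and CDC20, both lower, have 2 each.

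Genes of the G1/S transition and DNA replication were lower more often than higher. Of 48 measured, 5 were higher and 14 lower, and the median estimate was -0.16, -0.21 with the authors' ratios and -0.25 with median centring. RFC2, a subunit of the clamp loader, stood at -0.73, -0.58 and -0.52, estimate -0.59 ± 0.047 (adjusted p = 0.00103), and its other probe gave -0.49. TK1, thymidine kinase, stood at -0.16, -0.26 and -0.76, lower on the swapped array, with an estimate of -0.49 ± 0.044 (adjusted p = 0.00127). RB1, the retinoblastoma protein, was higher at 0.49 ± 0.069 (adjusted p = 0.00437), and CDK6, a G1 kinase, at 0.36 ± 0.048 (adjusted p = 0.00355). Other probes of RB1 and CDK6 gave 0.14 and -0.03. Higher and lower members numbered 2 and 7 without array 1, 2 and 8 without array 2 and 2 and 6 without array 3. Median centring gave 0 and 15, and the authors' ratios 2 and 17.

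Among cholesterol genes more were higher than lower after loess, though not after median centring. Of 25 measured, 10 were higher and 4 lower, and the median estimate was 0.11, 0.00 with the authors' ratios and -0.04 with median centring. STARD4, a cytosolic sterol carrier, stood at 1.31, 0.80 and 0.75, estimate 0.93 ± 0.11 (adjusted p = 0.00265). HMGCS1, which makes HMG-CoA, stood at 0.51, 0.45 and 0.91, estimate 0.70 ± 0.051 (adjusted p = 0.000938), and its other probe gave 0.60. SQLE, squalene epoxidase, stood at 0.71, 0.74 and 0.40, estimate 0.58 ± 0.051 (adjusted p = 0.00125). SC5D, INSIG2, IDI1, HSD17B7 and FDFT1 were also higher, from 0.46 down to 0.19.

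TM7SF2, a sterol reductase, stood at -0.57, -0.79 and -0.15, estimate -0.43 ± 0.064 (adjusted p = 0.00499), and PMVK, phosphomevalonate kinase, had an estimate of -0.39 ± 0.039 (adjusted p = 0.00159). SCAP and DHCR7 were lower by 0.33 and 0.20 on the same scale. Leaving out array 1, 2 or 3 gave 7 and 2, 7 and 2, and 7 and 2 higher and lower members. They were 4 and 4 with median centring and 7 and 5 with the authors' ratios. In fatty acid synthesis, 3 of 22 were higher and 5 lower. ACSL3 and ACSL1, which activate fatty acids, had estimates of 0.50 and 0.38, but the other probe of ACSL3 gave -0.55 and was called lower. AGPAT2, which acylates lysophosphatidic acid, fell with -0.66 ± 0.083 (adjusted p = 0.00297), and SREBF1, the sterol and lipid regulator, with -0.47 ± 0.082 (adjusted p = 0.00896). The counts became 2 and 3 without array 1, 2 and 4 without array 2 and 2 and 4 without array 3. Under median centring they were 0 and 5, and under the authors' ratios 2 and 5.

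**Figure D2:**
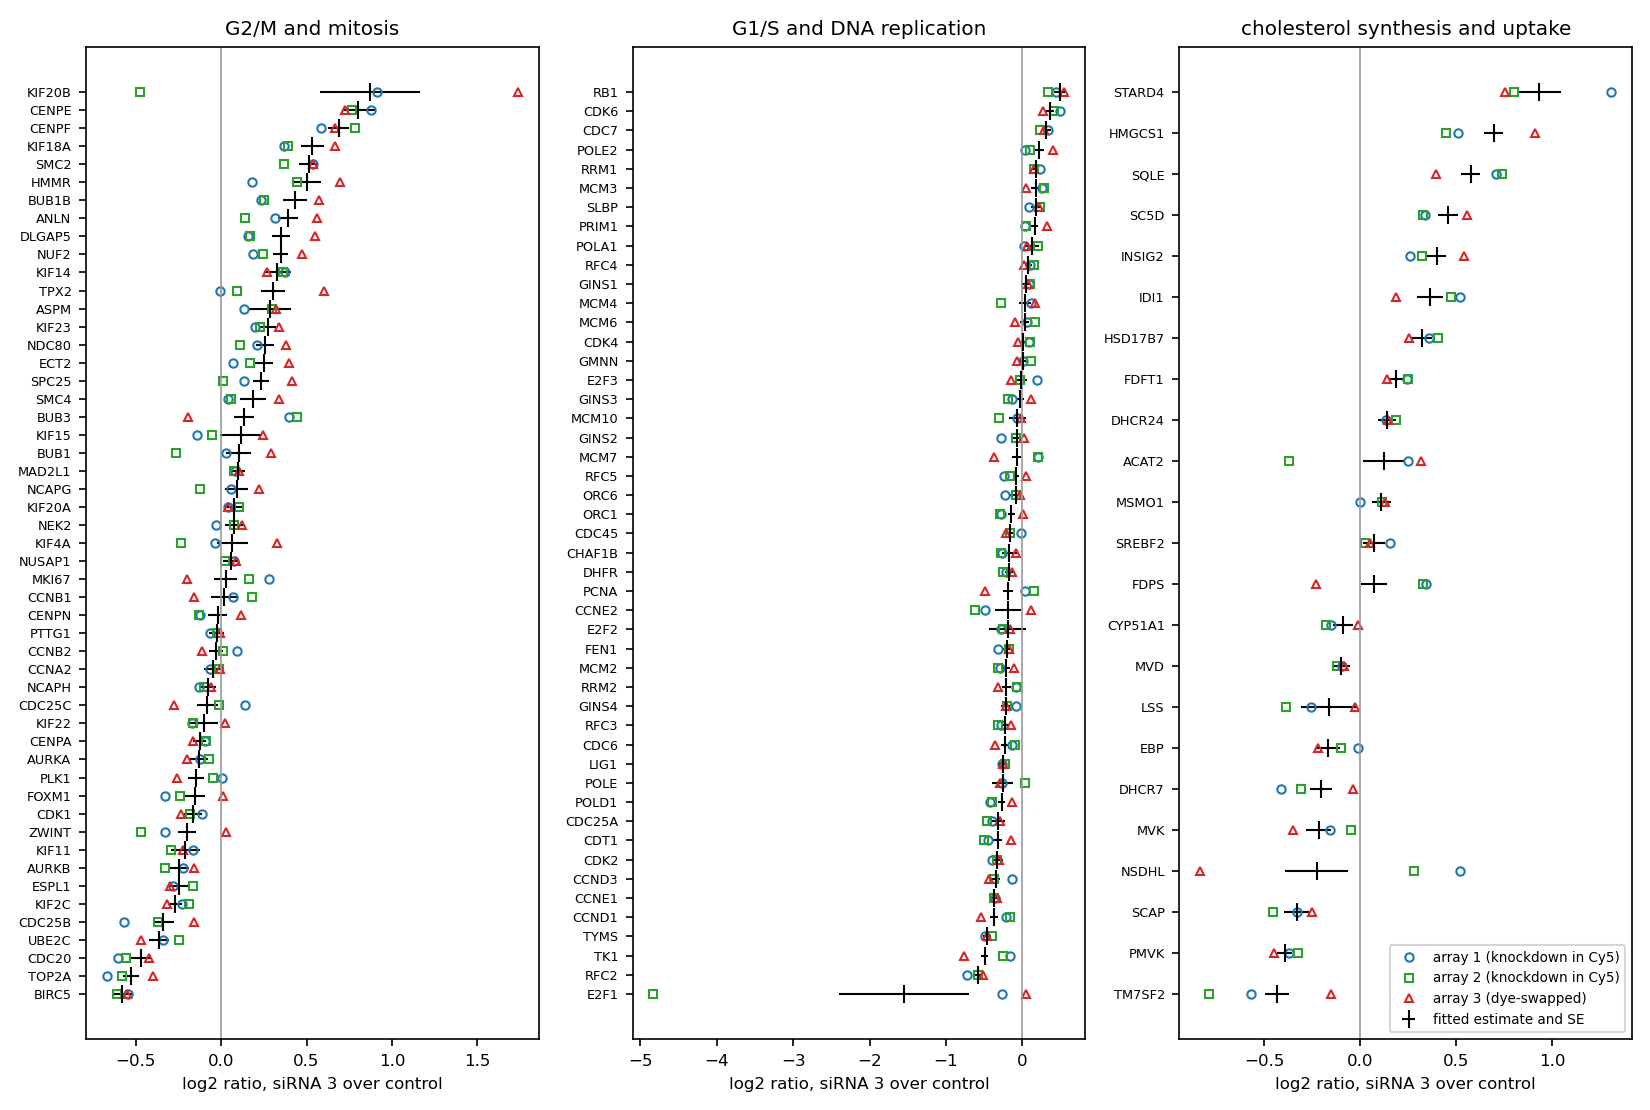
Log2 ratio of siRNA 3 over control on each array (points) with the fitted estimate and standard error (bars) for measured members of 3 lists. Mitotic genes spread to both sides of 0, replication genes lie mostly below 0, and STARD4, HMGCS1 and SQLE lead the cholesterol genes.

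Chaperone and unfolded protein response lists held more higher than lower members. Of 23 heat shock genes and co-chaperones, 8 were higher and 1 lower, and the median estimate was 0.15, 0.08 with the authors' ratios and 0.04 with median centring. DNAJB4 and CHORDC1, co-chaperones of HSP70 and HSP90, had estimates of 0.57 ± 0.069 (adjusted p = 0.00264) and 0.55 ± 0.049 (adjusted p = 0.00127), and HSPB1, a small heat shock protein, was lower at -0.20 ± 0.045 (adjusted p = 0.023). On leaving out array 1, 2 or 3 these counts were 6 and 0, 5 and 0, and 6 and 0. Counts were 6 and 1 with the authors' ratios and 3 and 1 with median centring. Of 28 endoplasmic reticulum chaperone and unfolded protein response genes, 8 were higher and 2 lower, and the median estimate was 0.10, 0.02 with the authors' ratios and -0.02 with median centring. SEL1L, of the degradation complex, stood at 0.78, 0.77 and 0.91, estimate 0.84 ± 0.062 (adjusted p = 0.000938), while its other probe gave 0.17 and was not called. EIF2AK3, the PERK kinase, had an estimate of 0.57 ± 0.066 (adjusted p = 0.00232). SDF2L1, a chaperone of the lumen, and XBP1, the response's transcription factor, were lower at -0.31 and -0.26. Omitting array 1, 2 or 3 left 7 and 1, 7 and 1, and 6 and 2 members higher and lower. On the authors' ratios the counts were 7 and 3, and on median centring 2 and 1.

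Of 29 ATF4 and amino acid response genes, 9 were higher and 4 lower, and the median estimate was 0.03, -0.03 with the authors' ratios and -0.07 with median centring. SLC38A2, an amino acid transporter, stood at 0.86, 0.84 and 0.59, estimate 0.72 ± 0.042 (adjusted p = 0.00047). PPP1R15A, the phosphatase subunit that reverses eIF2 phosphorylation, had an estimate of 0.56 ± 0.058 (adjusted p = 0.00179). SLC7A5, a leucine transporter, stood at 0.04, -0.23 and -0.63, lowest on the swapped array, and CEBPB, a transcription factor, had an estimate of -0.31 ± 0.043 (adjusted p = 0.00423). Refits without array 1, 2 or 3 gave counts of 5 and 2, 5 and 2, and 4 and 1. With the authors' ratios they were 3 and 4, and with median centring 2 and 3, so that the balance turned under both. Of 27 NF-kB and inflammatory genes, 3 were higher and 0 lower. BIRC3, an inhibitor of apoptosis that is dim here, stood at 0.57, 0.60 and 1.25, and TNFAIP3, which ends NF-kB signalling, had an estimate of 0.45 ± 0.059 (adjusted p = 0.00347). Without array 1, 2 or 3 the higher and lower members numbered 1 and 0, 1 and 0, and 1 and 0. The authors' ratios gave 2 and 0, and median centring 1 and 0. Of 27 NRF2 targets, 3 were higher and 3 lower. ABCC2 and UGDH were higher at 0.41 and 0.36, PGD of the pentose phosphate pathway lower at -0.27, and the other probe of UGDH gave -0.33 and was called lower. With array 1, 2 or 3 left out, 1 and 1, 1 and 2, and 0 and 1 members were higher and lower. Median centring gave 0 and 3, and the authors' ratios 1 and 3.

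Of 34 interferon-stimulated genes, 2 were higher and 5 lower. BST2, tetherin, stood at -0.93, -0.54 and -0.59, estimate -0.66 ± 0.11 (adjusted p = 0.00762). IFI30 was lower at -0.48, and IFI6 and IFI44L were higher at 0.28 and 0.26. The other probe of IFI44L gave -0.12. Higher and lower members numbered 2 and 4 without array 1, 2 and 4 without array 2 and 0 and 2 without array 3. They were 0 and 4 with median centring and 0 and 4 with the authors' ratios. Of 26 p53 targets, 6 were higher and 3 lower. RRM2B and CDKN1A, a ribonucleotide reductase subunit and the p21 inhibitor, were higher at 0.34 and 0.32, and ZMAT3 and FDXR lower at -0.58 and -0.56. Leaving out array 1, 2 or 3 gave 1 and 2, 0 and 2, and 0 and 1 higher and lower members. Under median centring they were 0 and 3, and under the authors' ratios 2 and 3, so that the balance turned under both. Of 37 hypoxia and glycolysis genes, 5 were higher and 6 lower. HIF1A, the oxygen-regulated factor, stood at 0.67, 0.61 and 0.73, estimate 0.69 ± 0.039 (adjusted p = 0.00047), but its other probe gave -0.02, and KDM3A was higher at 0.42. SLC16A3, a lactate exporter, and HK1, hexokinase, were lower at -0.59 and -0.50. The counts became 3 and 5 without array 1, 3 and 4 without array 2 and 1 and 3 without array 3. Counts were 2 and 6 with the authors' ratios and 1 and 6 with median centring.

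Mitochondrial and lysosomal lists held more lower than higher members. Of 70 mitochondrial ribosomal proteins, 5 were higher and 16 lower, and the median estimate was -0.08, -0.17 with the authors' ratios and -0.21 with median centring. MRPL44 and MRPL37 were lower at -0.53 ± 0.066 (adjusted p = 0.003) and -0.41 ± 0.042 (adjusted p = 0.00173), while MRPL50 and MRPL38 were higher at 1.08 and 0.55. On leaving out array 1, 2 or 3 these counts were 3 and 8, 4 and 8, and 3 and 6. On the authors' ratios the counts were 3 and 22, and on median centring 3 and 16. Of 73 genes of oxidative phosphorylation, 5 were higher and 15 lower. NDUFV1, of complex I, stood at -0.11, -0.25 and -0.72, lowest on the swapped array, and ATP5F1D, of ATP synthase, had an estimate of -0.41 ± 0.053 (adjusted p = 0.00333). CYCS, cytochrome c, stood at 0.93, 0.12 and 0.95, with array 2 near 0, and UQCRB, of complex III, was higher at 0.22. Omitting array 1, 2 or 3 left 1 and 5, 1 and 6, and 0 and 2 members higher and lower. With the authors' ratios they were 1 and 17, and with median centring 0 and 13.

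Of 51 autophagy and lysosome genes, 5 were higher and 15 lower, and the median estimate was -0.02, -0.13 with the authors' ratios and -0.16 with median centring. ATP6AP1, of the proton pump, stood at -0.73, -0.62 and -0.62, estimate -0.65 ± 0.054 (adjusted p = 0.00107), and CTSA, a cathepsin, had an estimate of -0.58 ± 0.05 (adjusted p = 0.00117). PIK3C3 and MAP1LC3B, of autophagosome formation, were higher at 0.36 and 0.24. Refits without array 1, 2 or 3 gave counts of 0 and 7, 0 and 9, and 0 and 6. The authors' ratios gave 0 and 18, and median centring 0 and 13. Of 36 apoptosis regulators, 4 were higher and 11 lower, and the median estimate was -0.09, -0.18 with the authors' ratios and -0.22 with median centring. HTRA2, a mitochondrial protease, was lower at -0.57 ± 0.05 (adjusted p = 0.00125). Without array 1, 2 or 3 the higher and lower members numbered 0 and 6, 2 and 7, and 0 and 5. Median centring gave 2 and 10, and the authors' ratios 2 and 11. Of 31 genes of the keto-acid dehydrogenases and TCA cycle, 4 were higher and 6 lower, with IDH1 and PDHX at 0.36 and 0.34 and BCKDK and IDH3G at -0.43 and -0.41. The 3 other probes of IDH1 gave -0.18, 0.09 and -0.20. With array 1, 2 or 3 left out, 3 and 3, 3 and 3, and 0 and 3 members were higher and lower. They were 0 and 6 with median centring and 1 and 5 with the authors' ratios. Of 18 aldehyde dehydrogenases and glyoxalases, 1 was higher, ALDH18A1 at 0.26, and 2 lower, HAGH at -0.46 and ALDH2 at -0.29. Higher and lower members numbered 0 and 1 without array 1, 0 and 2 without array 2 and 0 and 1 without array 3. Under median centring they were 0 and 3, and under the authors' ratios 0 and 3.

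RNA and protein machinery was mixed. Of 67 splicing factors and hnRNPs, 20 were higher and 9 lower, and the median estimate was 0.08, -0.01 with the authors' ratios and -0.05 with median centring. CLK1, a kinase of splicing factors, stood at 0.43, 0.31 and 0.99, estimate 0.69 ± 0.074 (adjusted p = 0.00193). HNRNPAB and HNRNPK were lower at -0.47 and -0.42. Leaving out array 1, 2 or 3 gave 9 and 3, 9 and 4, and 8 and 5 higher and lower members. Counts were 7 and 11 with the authors' ratios and 5 and 11 with median centring, so that the balance turned under both. Of 16 genes of nonsense-mediated decay, 6 were higher and 1 lower. UPF3B, which links the exon junction to decay, stood at 0.96, 0.78 and 0.77, estimate 0.82 ± 0.074 (adjusted p = 0.00127), PNRC2 was higher at 0.60, and RNPS1 was lower at -0.25. The counts became 4 and 0 without array 1, 4 and 0 without array 2 and 2 and 0 without array 3. On the authors' ratios the counts were 4 and 1, and on median centring 2 and 1.

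Of 46 translation factors, 11 were higher and 8 lower, with EIF5 and EIF5B at 0.49 and 0.49. EIF3G was lower at -0.46, and EEF2K, a dim probe at -0.69, -0.89 and 0.07, was called lower with array 3 on the other side of 0. On leaving out array 1, 2 or 3 these counts were 7 and 2, 7 and 2, and 3 and 3. With the authors' ratios they were 4 and 8, and with median centring 3 and 6, so that the balance turned under both. Of 20 cytosolic aminoacyl-tRNA synthetase genes, 7 were higher and 2 lower, with EPRS1 and RARS1 at 0.42 and 0.38 and AIMP2 and MARS1 at -0.28 and -0.18. Other probes of MARS1 gave -0.30, called lower, and 0.18, not called. Omitting array 1, 2 or 3 left 2 and 1, 4 and 0, and 2 and 0 members higher and lower. The authors' ratios gave 1 and 2, and median centring 0 and 2, so that the balance turned under both. Of 57 other tRNA modification genes, 11 were higher and 6 lower. TRMT13 and PUS10 were higher at 0.59 ± 0.047 (adjusted p = 0.00103) and 0.56 ± 0.086 (adjusted p = 0.00565), and MOCS3 and TRMT10B lower at -0.49 ± 0.048 (adjusted p = 0.00148) and -0.36 ± 0.074 (adjusted p = 0.0164). Refits without array 1, 2 or 3 gave counts of 4 and 1, 5 and 1, and 7 and 1. Median centring gave 2 and 7, and the authors' ratios 5 and 10, so that the balance turned under both.

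Cytosolic ribosomal proteins had few calls, 2 higher and 2 lower of 70. Their list medians on arrays 1 to 3 were -0.34, -0.23 and 0.49, so the sign turned with the dye. RPS3A and RPL34 were called higher at 0.24 and 0.19, and RPS2 and RPS23 lower at -0.35 and -0.34. Without array 1, 2 or 3 the higher and lower members numbered 0 and 2, 1 and 1, and 0 and 1. They were 0 and 2 with median centring and 0 and 2 with the authors' ratios. Probes of ribosomal proteins can also bind transcripts of near-identical copies. Of 40 proteasome subunits, 5 were higher and 7 lower, with PSMD10 and PSMD7 at 0.38 and 0.33 and PSMC3 and PSMD6 at -0.46 and -0.32. With array 1, 2 or 3 left out, 2 and 3, 4 and 3, and 2 and 0 members were higher and lower. Under median centring they were 0 and 4, and under the authors' ratios 1 and 5. Of 21 RNA polymerase III genes, 5 were higher and 1 lower, with POLR3E and GTF3C3 at 0.35 and 0.32 and POLR3GL at -0.44, and the other probes of POLR3E gave 0.66 and -0.34. Higher and lower members numbered 3 and 0 without array 1, 3 and 0 without array 2 and 2 and 1 without array 3. Counts were 1 and 1 with the authors' ratios and 0 and 1 with median centring, so that the balance turned with median centring. Of 19 RNA interference genes, FMR1 was higher at 0.41 and SND1 lower at -0.17. Leaving out array 1, 2 or 3 gave 1 and 0, 1 and 0, and 0 and 0 higher and lower members. On the authors' ratios the counts were 1 and 0, and on median centring 1 and 0.

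Of 41 SWI/SNF and Polycomb genes, 7 were higher and 5 lower, with PHC3 and BMI1 at 0.49 and 0.30 and SMARCC2 and EZH2 at -0.38 and -0.36. Other probes gave 0.57 and -0.23 for PHC3 and 0.08 for SMARCC2. The counts became 3 and 2 without array 1, 4 and 3 without array 2 and 1 and 4 without array 3. With the authors' ratios they were 1 and 7, and with median centring 0 and 5, so that the balance turned under both. Of 6 replication-dependent histones, H2BC21 was higher at 0.45, and H2BC11 was called lower, though arrays 1 and 2 were above 0, at 0.08, 0.11 and -0.52. On leaving out array 1, 2 or 3 these counts were 1 and 0, 1 and 0, and 0 and 0. The authors' ratios gave 1 and 1, and median centring 0 and 0.

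Genes beside TRMT12 and in the ERBB2 amplicon were described by position. Of 17 measured neighbours of TRMT12 on chromosome 8, 8 were higher and 2 lower, TRMT12 among the latter, and the median estimate was 0.16, 0.09 with the authors' ratios and 0.05 with median centring. ZHX1, a zinc finger and homeobox protein, stood at 0.91, 1.01 and 0.68, estimate 0.84 ± 0.054 (adjusted p = 0.000661), and FBXO32, a ubiquitin ligase subunit, was lower at -0.33 ± 0.047 (adjusted p = 0.00442). Omitting array 1, 2 or 3 left 4 and 2, 5 and 2, and 5 and 2 members higher and lower. Median centring gave 2 and 2, and the authors' ratios 5 and 2. Of 18 genes of the ERBB2 amplicon, 1 was higher and 6 lower, and the median estimate was -0.21, -0.25 with the authors' ratios and -0.29 with median centring. IKZF3 and MED24 were lower at -0.52 ± 0.12 (adjusted p = 0.0275) and -0.41 ± 0.057 (adjusted p = 0.00415), and PPP1R1B was higher at 0.40 ± 0.065 (adjusted p = 0.00718). Refits without array 1, 2 or 3 gave counts of 1 and 3, 1 and 3, and 1 and 3. They were 1 and 6 with median centring and 1 and 5 with the authors' ratios. Of 34 ERBB ligand, receptor and MAPK response genes, 3 were higher and 3 lower. EGR1 and MYC, immediate early genes, were higher at 0.49 and 0.47, and IER2 and DUSP4 lower at -0.39 and -0.35, DUSP4 with array 3 above 0. Other probes of DUSP4, both dim, gave -0.40, called lower, and 0.17, not called. Without array 1, 2 or 3 the higher and lower members numbered 1 and 2, 2 and 2, and 1 and 2. Under median centring they were 0 and 3, and under the authors' ratios 2 and 3.

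Identity and adhesion genes were split. Of 28 luminal epithelial markers, 4 were higher and 7 lower, and the median estimate was -0.07, -0.16 with the authors' ratios and -0.20 with median centring. CLDN4, a claudin, stood at -0.51, -0.42 and -0.79, estimate -0.65 ± 0.072 (adjusted p = 0.00208), and GATA3, the luminal transcription factor, stood at -0.73, -0.93 and -0.18, with an estimate of -0.53 ± 0.075 (adjusted p = 0.00428). ESRP1 and ELF5 were higher at 0.53 and 0.52, though other probes of ELF5 gave 0.05 and 0.06. Those of ESRP1 gave 0.30, called higher, and 0.16 and 0.05, not called. With array 1, 2 or 3 left out, 2 and 3, 2 and 3, and 4 and 4 members were higher and lower. Counts were 2 and 8 with the authors' ratios and 1 and 6 with median centring. Of 26 desmosome and tight junction genes, 6 were higher and 6 lower, with CLDN12 at 0.78 and EVPL, envoplakin, at -0.51. Higher and lower members numbered 6 and 5 without array 1, 5 and 4 without array 2 and 3 and 3 without array 3. On the authors' ratios the counts were 5 and 7, and on median centring 3 and 6. Of 18 basal and mesenchymal markers, 5 were higher and 1 lower, with CD44 and KRT17 at 0.65 and 0.26 and LGALS1 at -0.33. Other probes of CD44, all dim, gave 0.37, 1.25 and 0.33, and that of LGALS1 gave -0.22, none of them called. The other probe of KRT17 gave 0.32 and was called higher. Leaving out array 1, 2 or 3 gave 1 and 1, 1 and 1, and 1 and 0 higher and lower members. With the authors' ratios they were 1 and 1, and with median centring 1 and 1.

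Of 42 extracellular matrix and adhesion genes, 8 were higher and 4 lower, with EFEMP1 and LAMB3 at 0.41 and 0.37, ITGB5 at -0.45, and FBLN1 at -0.52, -0.73 and 0.01, where array 3 was at 0. The counts became 5 and 2 without array 1, 6 and 2 without array 2 and 3 and 1 without array 3. The authors' ratios gave 2 and 4, and median centring 0 and 4, so that the balance turned under both. Of 39 TGF-beta and BMP pathway genes, 3 were higher and 5 lower. ID1 was the lowest of those called, LTBP3 was at -0.45, and ACVR2A and SMAD3 were at 0.31 and 0.27. The other probe of SMAD3 gave -0.21. On leaving out array 1, 2 or 3 these counts were 1 and 4, 0 and 5, and 0 and 3. Median centring gave 0 and 4, and the authors' ratios 0 and 6. Of 35 Wnt pathway genes, 8 were higher and 2 lower, with APC, of the beta-catenin destruction complex, at 0.75 ± 0.17 (adjusted p = 0.0323), LGR4, an R-spondin receptor, at 0.48 ± 0.076 (adjusted p = 0.00619), and WNT5A and PORCN at -0.26 and -0.25. Omitting array 1, 2 or 3 left 5 and 0, 5 and 1, and 4 and 0 members higher and lower. They were 1 and 2 with median centring and 5 and 2 with the authors' ratios, so that the balance turned with median centring. Of 26 Notch pathway genes, 1 was higher, HEY1 at 0.16, and 4 lower, with RBPJ at -0.33 and DLL3, without a ratio on array 2, at -0.30. The other probe of HEY1 gave -0.29, and those of RBPJ gave -0.04, 0.00 and 0.09. Refits without array 1, 2 or 3 gave counts of 0 and 0, 0 and 1, and 0 and 0. Under median centring they were 0 and 3, and under the authors' ratios 0 and 4.

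**Figure D3:**
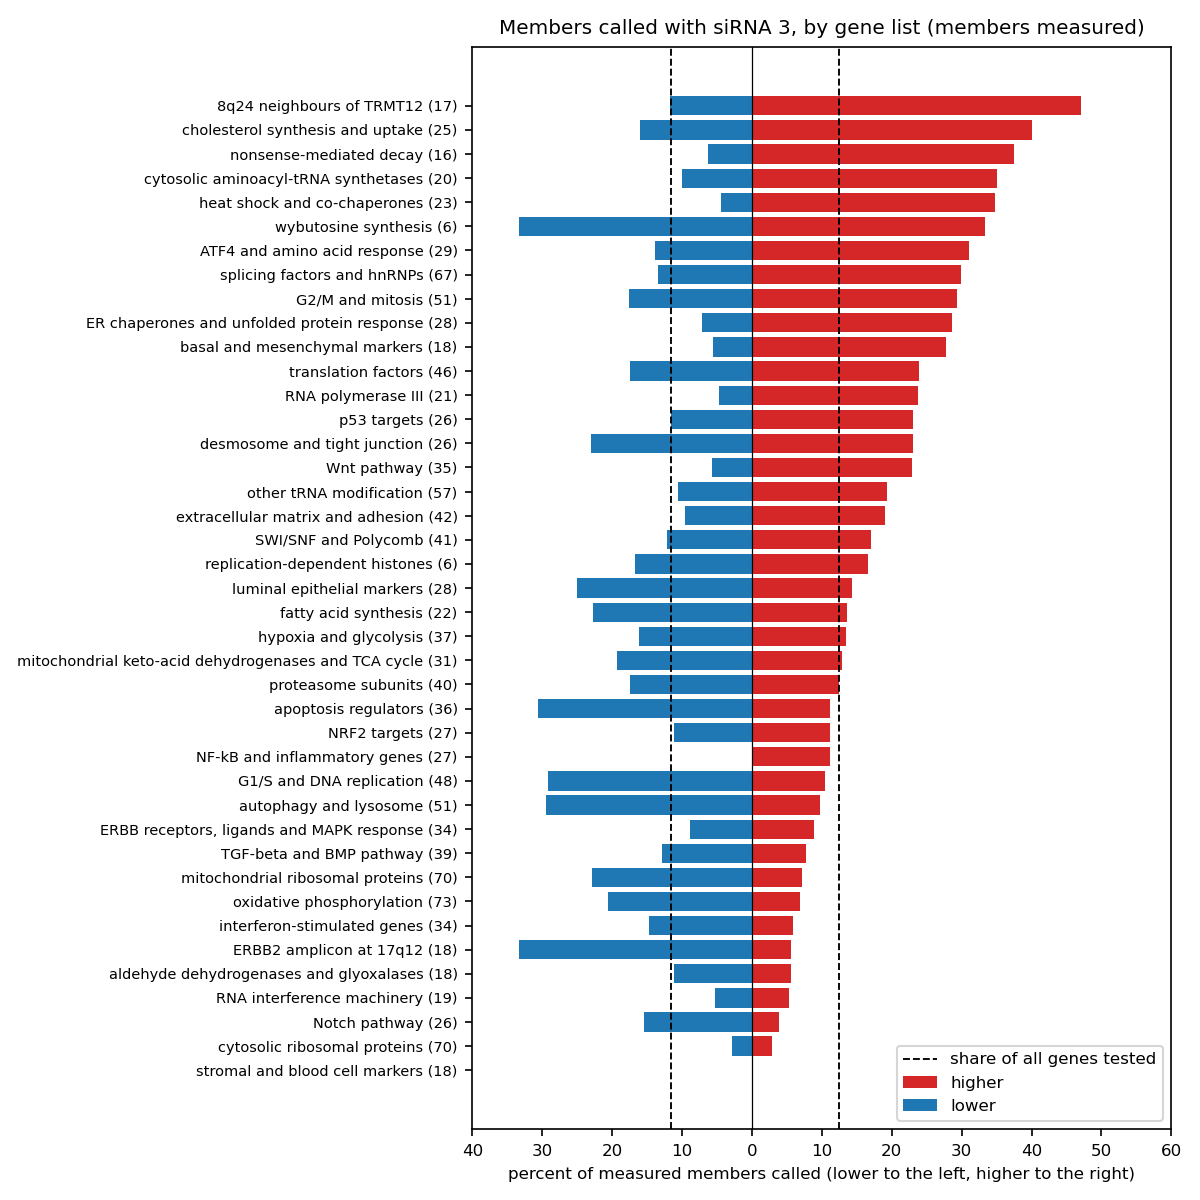
Share of measured members called higher (right) and lower (left) with siRNA 3 for each of 41 gene lists, with the number of members measured in brackets, and dashed lines at the shares over all genes, 12.4% and 11.5%. With loess, cholesterol genes and 8q24 neighbours reach farthest to the right, and several mitochondrial, lysosomal and replication lists lie mostly to the left.

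Where siRNA 3 departed from siRNA 1 and 2 was tested as its estimate minus the mean of theirs. Of 28259 probes, 3470 were called (12.3%), 1669 higher (5.91%) and 1801 lower (6.37%) with siRNA 3. Per gene 1220 of 14148 were higher (8.62%) and 723 lower (5.11%). Among genes with a ratio on all 9 arrays, 1037 of 12819 (8.09%) had every siRNA 3 array above every other array and 636 (4.96%) below. Without array 1, 2 or 3 of siRNA 3 the probe counts were 662, 831 and 1386. Median centring left 185 probes, the authors' ratios 1406, and no dye term 740.

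Part of this difference lay in genes that siRNA 3 itself changed. WIPF1 was near 0 with siRNA 1 and 2, at -0.07 and -0.07, and 1.16 with siRNA 3, a difference of 1.23 (adjusted p = 0.00375). VCP was 0.07 and -0.16 with the others, a difference of -1.03 (adjusted p = 0.00375), and PPIF -0.07 and -0.11, a difference of -0.89 (adjusted p = 0.00375). TOP2A was 0.24 and 0.63 with the others and lower with siRNA 3, a difference of -0.96 (adjusted p = 0.00375). ZFX, an X-linked zinc finger factor, stood at -0.60, -0.49 and -0.45 with siRNA 3 and 1.18 and 0.29 with the others. Its difference was -1.26 (adjusted p = 0.00504), and its other probe gave -0.75 with siRNA 3. Because TOP2A and ZFX stood above 0 with siRNA 1 and 2, those siRNAs also contributed to their differences. By the rule that chose the genes named here, every siRNA 3 array lay outside the range of the other 6.

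Another part lay in genes that moved with the other siRNAs. HMOX1, heme oxygenase, was 1.66 and 0.46 with siRNA 1 and 2 and 0.22 with siRNA 3, a difference of -0.84 (adjusted p = 0.00383). HSPA6, an inducible HSP70, was 1.83 and 0.83 against 0.32, a difference of -1.01 (adjusted p = 0.00375). BPNT1 and PHC3 were at 1.30 to 1.44 with the others and 0.45 and 0.49 with siRNA 3, differences of -0.90 (adjusted p = 0.00375) and -0.88 (adjusted p = 0.00489). For PHC3 the other probes had differences of 0.32 and, on a dim one, -0.22. CCL20 and PIK3C2G, both dim, had differences of -0.85 (adjusted p = 0.021) and -0.82 (adjusted p = 0.0498), and neither was called with siRNA 3 against its control.

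GLO1, EFEMP1, NT5E, LAMB4, LMO7, TOPORS and PANK1 were lowest with siRNA 2, at -0.61 to -1.64, and between 0.13 and 0.82 with siRNA 3. Their differences ran from 0.95 (adjusted p = 0.00375) for GLO1 to 1.23 (adjusted p = 0.00375) for EFEMP1. COL5A2, a fibrillar collagen, was lowest with siRNA 1, at -1.56, a difference of 1.14 (adjusted p = 0.00488). ARHGAP11A, at 0.65, 0.46 and 0.71 with siRNA 3, had a difference of 1.36 (adjusted p = 0.0113) and is dim. Other probes of TOPORS and PANK1 gave 0.18 and 0.01 with siRNA 3.

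**Figure D4:**
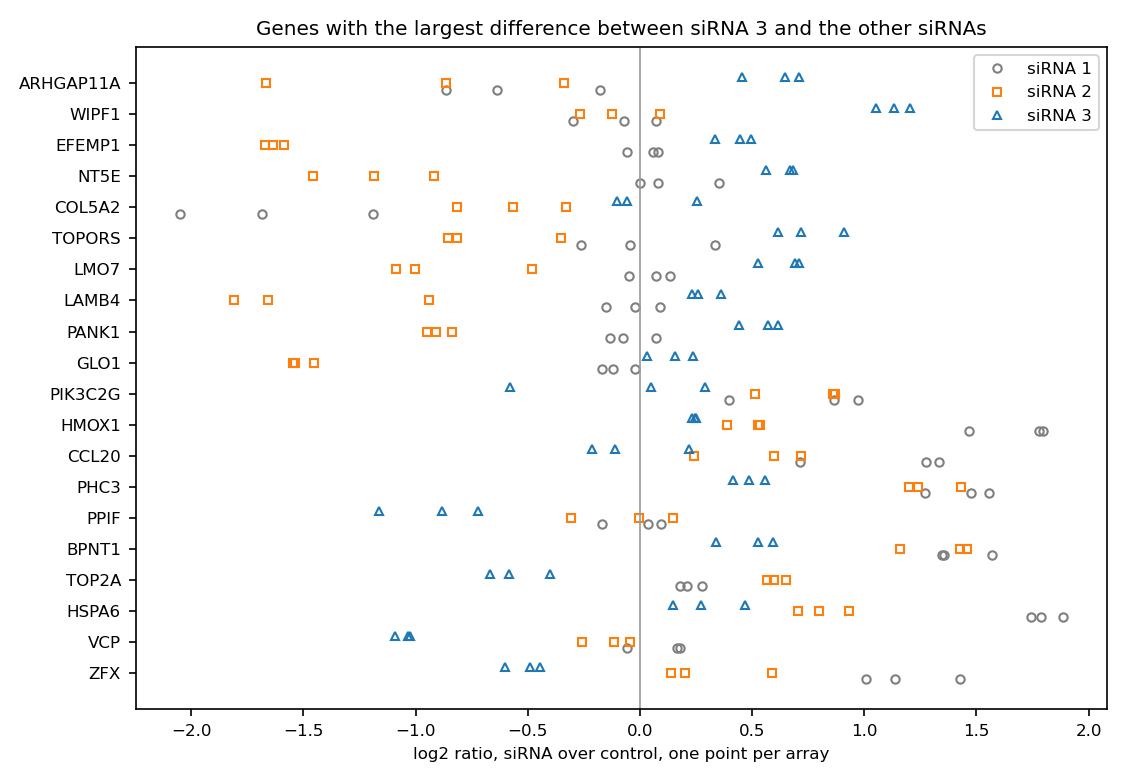
Log2 ratio over control on each of the 9 arrays, by siRNA, for the 10 genes each way with the largest called difference between siRNA 3 and the mean of siRNA 1 and 2 among those the naming rule allows. By that rule, every siRNA 3 point lies to 1 side of the other 6 points of its gene.

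By list, the siRNA 3 difference was called higher for 23 of 51 mitotic genes and lower for 1. Their median estimates were -0.28, -0.15 and 0.07 for siRNA 1, 2 and 3. Of 48 G1/S and replication genes, 14 were called higher and 1 lower, with medians of -0.30, -0.20 and -0.16, and of 25 cholesterol genes 9 and 2, with medians of -0.13, -0.10 and 0.11. Differences called lower led among ATF4 and amino acid response genes, with 14 of 29 and 1 higher, at medians of 0.55, 0.20 and 0.03, and among NRF2 targets, with 11 of 27 and 0 higher, at 0.20, 0.16 and 0.05. Differences called lower also numbered 9 of 36 among apoptosis regulators and 6 of 27 among NF-kB genes. These counts stand against 8.62% higher and 5.11% lower over all genes. They were taken with loess only and were not repeated by list under other settings. Over the array, probes called for the difference fell from 3470 to 185 with median centring.

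Genes called with siRNA 3 differed in genomic span, the length from start to end of the gene in GRCh38.p14. The median span was 45.7 kb for higher genes, 18 kb for lower genes and 27.6 kb for all tested. In 5 bins of equal gene number, from the shortest genes to the longest, the median estimate went from -0.04 through -0.02, 0.01 and 0.04 to 0.06, and each of the 3 arrays rose in the same order. With median centring the first and last bin stood at -0.07 and 0.03, and with the authors' ratios at -0.03 and 0.07. The share called higher went from 4.24% to 17.8%, and the share called lower from 15.8% to 7.17%. The same medians for the first and last bin were -0.04 and 0.01 with siRNA 1 and -0.01 and 0.00 with siRNA 2. Median log2 intensity went from 8.998 in the first bin through 9.54 in the middle bin to 8.75 in the last, and its part in the pattern was not tested.

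**Figure D5:**
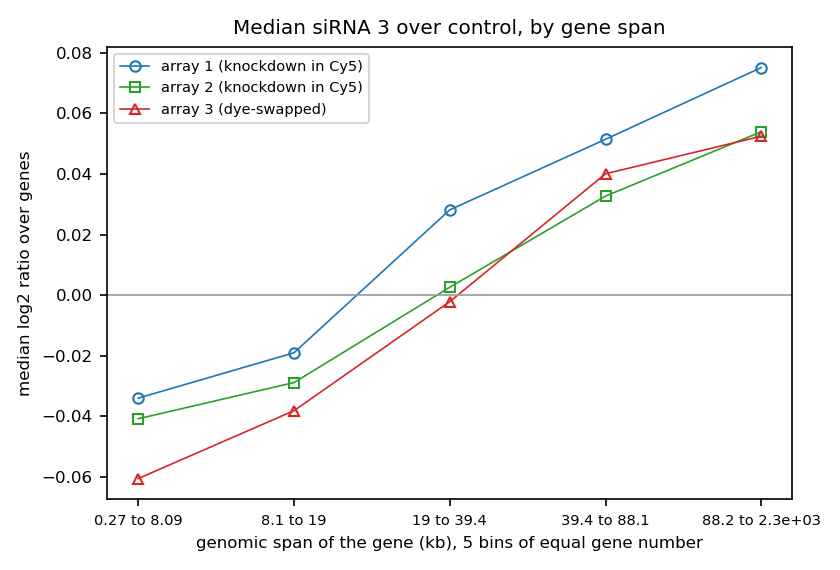
Median log2 ratio of siRNA 3 over control in 5 bins of genes by genomic span (kb), one line per array. On all 3 arrays the median rises from the shortest genes to the longest, between -0.06 and 0.08.

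Chromosomes differed in the same kind of count. On chromosome 13, 25.7% of 230 genes were higher and 6.09% lower, and on chromosome 5, 19.3% of 616 and 7.63%. On chromosome 16, 3.72% of 645 were higher and 19.1% lower, and on chromosome 22, 3.66% of 273 and 15.4%. Promoters of lower genes had a median GC content of 67.3% against 64% for higher genes and for all tested. Of 373 genes whose symbol begins with ZNF, mostly zinc finger proteins, 76 were higher (20.4%) and 15 lower (4.02%), and 182 were dim. Their median estimate was 0.07, 0.11 with the authors' ratios and 0.07 with median centring. Of 220 olfactory receptor genes measured, 4 were called higher (1.82%) and 2 lower (0.91%), and 171 were dim. Over all 14148 genes 12.4% were higher and 11.5% lower, and 5759 were dim.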

How the data were processed

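Per the file headers, the authors' image program gave each spot a mean intensity per channel, already above local background, with a floor of 1 where no spot was found. The deposited files also hold a calibrated ratio, which is the intensity ratio divided by 1 factor per array, a spot quality (a fraction), and the spot area. A deposited table holds log2 ratios, which match log2 of the calibrated ratio within 0.001, with the sign turned on the swapped arrays. Here each ratio is knockdown over control, the direction in which the series text says the array files stand. The sources used here name no image program, scanner or build.

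Log2 ratios were normalised by loess within arrays (limma 3.58.1, R 4.3.3), with blanks at weight 0. Of 35328 probes, 28259 were tested, each with a channel above 2 background standard deviations on 6 or more arrays and ratios in both dye orientations for all 3 siRNAs. All 9 arrays entered 1 moderated fit, with siRNA means and dye orientation as terms. Of the probes, 23877 carried a gene symbol. Named were TRMT12, the 15 highest and 15 lowest called genes with the same sign on all 3 arrays, the 10 highest and lowest of these at or above median intensity, 10 genes each way for the difference between siRNAs, and up to 2 highest and 2 lowest called members of each list. Further called mitosis and cholesterol genes, named outside this rule, were chosen after their values were seen. Some genes are counted in their lists but not reported by name here. The members, lists and motifs were chosen with earlier results of these data known. Simulated data for siRNA 3 over control held 28259 probes, of which 100 were changed 1.5-fold and 100 were changed 2-fold. The fit recovered 27% and 60% of these and called 5 unchanged probes. The simulated spread still held the dye effect of the real arrays, and far fewer probes were changed than the 5656 called here. The simulation therefore cannot give the recovery or the false calls of the real fit.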

Additional observations from a re-analysis of the deposited data

Results flagged for a closer look

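The effect of siRNA 3 differed from that of siRNA 1 and 2 by a test of the difference itself, the siRNA 3 estimate minus the mean of the other estimates in the limma fit. This held for 3470 probes at an adjusted p under 0.05. Values below are these log2 differences for the genes the text names. Whether the arrays of the 3 siRNAs share control RNA is not settled, and no cause was tested.

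Among the genes chosen for their difference, differences above 0 were 1.36 for ARHGAP11A, 1.23 for WIPF1, 1.23 for EFEMP1, 1.16 for NT5E, 1.14 for COL5A2, 1.08 for TOPORS, 1.04 for LMO7 and 1.03 for LAMB4. Among the genes chosen for their difference, further differences above 0 were 1.01 for PANK1 and 0.95 for GLO1. Among the genes chosen for their difference, differences below 0 were -1.26 for ZFX, -1.03 for VCP, -1.01 for HSPA6, -0.96 for TOP2A, -0.90 for BPNT1, -0.89 for PPIF, -0.88 for PHC3 and -0.85 for CCL20. Among the genes chosen for their difference, further differences below 0 were -0.84 for HMOX1 and -0.82 for PIK3C2G.

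Among the highest and lowest genes with siRNA 3, differences above 0 were 1.16 for STK38L, 0.86 for PPIG, 0.74 for CEP290, 0.73 for NPR3, 0.65 for ATRX, 0.60 for ZNF92, 0.46 for ESCO1 and 0.46 for RB1CC1. Among the highest and lowest genes with siRNA 3, further differences above 0 were 0.28 for CLDN1 and 0.28 for JMJD1C. Among the highest and lowest genes with siRNA 3, differences below 0 were -1.08 for SPRR1B, -0.83 for RIBC2, -0.80 for UGT1A4, -0.77 for MCUB, -0.70 for LITAF, -0.58 for RCAN3, -0.47 for ID1 and -0.43 for PTDSS1. Among the highest and lowest genes with siRNA 3, the difference below 0 was -0.42 for ASRGL1.

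Among cell cycle genes, differences above 0 were 0.79 for CENPE, 0.70 for CENPF, 0.53 for RB1 and 0.38 for CDK6.

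Among lipid genes, differences above 0 were 0.51 for HMGCS1, 0.48 for ACSL3 and 0.29 for ACSL1. Among lipid genes, the difference below 0 was -0.24 for PMVK.

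Among stress response genes, differences above 0 were 0.52 for HIF1A, 0.35 for RRM2B and 0.24 for IFI44L. Among stress response genes, differences below 0 were -0.71 for BST2, -0.59 for CEBPB, -0.47 for SDF2L1, -0.35 for PPP1R15A, -0.28 for SLC16A3 and -0.27 for PGD.

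Among mitochondrial, lysosomal and apoptosis genes, differences above 0 were 0.91 for PDHX, 0.84 for ALDH2 and 0.29 for IDH1. Among mitochondrial, lysosomal and apoptosis genes, differences below 0 were -0.77 for CYCS, -0.37 for HTRA2, -0.35 for ATP6AP1, -0.29 for CTSA, -0.23 for MRPL37 and -0.23 for HAGH.

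Among RNA and protein machinery genes, differences above 0 were 0.49 for PUS10, 0.38 for UPF3B, 0.38 for EPRS1, 0.38 for EIF5, 0.33 for RARS1, 0.32 for PSMD10, 0.26 for PNRC2 and 0.24 for GTF3C3. Among RNA and protein machinery genes, differences below 0 were -0.45 for HNRNPK, -0.42 for EIF3G, -0.41 for TRMT10B, -0.36 for RPS2, -0.35 for H2BC11, -0.33 for PSMD6, -0.30 for PSMC3 and -0.28 for HNRNPAB. Among RNA and protein machinery genes, further differences below 0 were -0.26 for EZH2, -0.26 for MOCS3 and -0.22 for MARS1.

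Among position and signalling genes, differences above 0 were 0.68 for ZHX1, 0.62 for SQLE, 0.58 for LGR4 and 0.37 for PPP1R1B. Among position and signalling genes, differences below 0 were -0.69 for FBXO32 and -0.33 for HEY1.

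Among epithelial and matrix genes, differences above 0 were 0.73 for ELF5, 0.56 for EVPL, 0.33 for ESRP1 and 0.31 for CLDN12. Among epithelial and matrix genes, the difference below 0 was -0.80 for CLDN4.

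Each difference is of the brightest tested probe of its gene, and some genes have another probe with a difference of the opposite sign. These were -0.72 for ACSL3, -0.32 for CDK6, -0.06 for ESRP1, -0.06 for HIF1A, -0.17 for IDH1 and -0.23 for IDH1. Further ones were -0.33 for IFI44L, -0.29 for JMJD1C, 0.32 for PHC3, -0.02 for PSMD10, -0.01 for WIPF1 and -0.04 for ZNF92. Other probes with the same sign could differ far less, such as 0.001 for NPR3, 0.03 for PANK1 and -0.07 for LITAF. Some differed more, such as -0.85 for EZH2 and -0.61 for ASRGL1.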

How the results depend on the processing

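No paired analysis was possible because the labels give no replicate number shared between siRNAs. The 3 siRNA 3 arrays limit precision, and dim probes have little signal above background. TRMT12 with siRNA 3 kept its direction under every setting run and its call under all but 2: with the siRNA 3 arrays alone it was -2.45 (adjusted p = 0.0823), and with the normexp background correction planned on all spots -0.90 (adjusted p = 0.634). Its estimate was -2.50 to -2.43 with single arrays left out. Normexp on all spots called 0 probes for siRNA 3 with limma (2630 at an unadjusted p under 0.05) and 1 for the difference from siRNA 1 and 2. Its fitted signal mean was under 1 in 4 of 18 channels, and EEF2K, DUSP4 and FBLN1 with siRNA 3 turned to 0.0301, 0.102 and 0.00415. It was therefore repeated on found spots only, chosen after seeing that result, which called 6092 and 3855. For siRNA 3 against control, probes called numbered 3331 with median centring, 2656 without the dye term, 0 with its arrays alone, 500 at 1.5-fold or more, and 2248 to 6474 with single arrays left out. For siRNA 3 minus the mean of siRNA 1 and 2, probes called numbered 185 with median centring, 1406 with the authors' ratios, 740 without the dye term, 662 to 3393 with single arrays left out, and, on fewer probes, 5155 without low-quality spots. TYW1 turned to -0.0036 with median centring. Of 41 list medians, 32 moved beyond the spread between arrays under median centring, and 22 under the authors' ratios. The causes were not tested, except that leaving out arrays or spots leaves less data.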
